A study of Drosophila melanogaster with 2 samples.

Results

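Peaks of the hamlet protein (Ham) were examined at 10 genes that encode transcription factors of sensory neurons and their dendrites. The genes were ham, ct, kn, ab, ss, sens, pros, ttk, acj6 and onecut, taken from a fixed list of names, out of 13968 protein-coding genes on the main chromosome arms. The authors' lists give candidate regions, ranked by how alike they come out in repeated peak calls, and thresholded peaks, the regions of that ranking that pass a limit. A region belonged to a gene when, of all start sites of protein-coding genes, 1 of that gene's was nearest to its summit. A region inside the body of a gene could thus belong to another gene. The body of acj6 held 36 candidate regions, while 13 belonged to it, and that of kn held 54, while 42 belonged to it. By this rule 452 of 147354 pooled candidate regions and 5 of 1421 pooled thresholded peaks on the main arms belonged to these 10 genes. The study immunoprecipitated chromatin of whole Drosophila melanogaster embryos aged 0 to 24 hours, of the transgenic strain ham-GFP, in which Ham carries eGFP, with an antibody against GFP. All of its samples were of this 1 group, as 2 biological replicates, so no genotype, treatment or age was compared. The strain is labelled as an insertion targeting ham, and the labels do not say whether a second, untagged copy of the gene was present. In whole embryos, binding in few cells cannot be told apart from weak binding in many.

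The sensory organs of the fly arise from single precursor cells that proneural factors and Senseless select from the epidermis, and each precursor divides asymmetrically under Notch signalling into a neuron and its support cells. Ham, a zinc finger protein of the PRDM family, acts late in this lineage and keeps external sensory neurons to a single dendrite. In the dendritic arborization neurons of the larval body wall, Cut, Knot, Abrupt and Spineless govern how the dendrite branches.

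The sequences at the centres of 7 regions are shown first, because the counts below turn on them: the 5 thresholded peaks, and the regions of highest score of ss, which came close to the threshold, and of sens, which scored lower. Each is 101 bases of build dm6 about the centre of the region, from the RefSeq Release 6 genome, and capitals mark any of 10 words that were searched on both strands. GATAA is the core of the sites of GATA factors, and its longer form AGATAA was searched too. GACAAGATA and, for the other zinc finger domain, GAAGATGAG are known from Evi1, a mammalian relative of Ham. CAGGTA is the core of the Zelda site. CAGCTG is an E-box of the kind that bHLH proneural proteins bind. GAGAG is the word of the GAGA factor. TATCGATA, the DREF element, and GGTCACACT, a core promoter motif, are common at promoters. TGACTCA is the site of AP-1.
ham intron, chr2L:18770602-18770702, plus strand: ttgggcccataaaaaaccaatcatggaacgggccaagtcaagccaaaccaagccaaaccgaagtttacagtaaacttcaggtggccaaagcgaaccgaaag
ham upstream, chr2L:18796062-18796162, plus strand: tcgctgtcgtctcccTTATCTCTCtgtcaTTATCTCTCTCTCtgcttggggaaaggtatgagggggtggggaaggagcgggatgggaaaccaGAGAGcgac
ham other intron peak, chr2L:18781501-18781601, plus strand: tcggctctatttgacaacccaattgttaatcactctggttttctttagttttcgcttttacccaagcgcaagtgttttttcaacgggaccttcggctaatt
ham internal promoter, chr2L:18771881-18771981, plus strand: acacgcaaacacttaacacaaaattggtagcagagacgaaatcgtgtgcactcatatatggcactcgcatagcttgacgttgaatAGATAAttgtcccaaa
ct intron, chrX:7651739-7651839, plus strand: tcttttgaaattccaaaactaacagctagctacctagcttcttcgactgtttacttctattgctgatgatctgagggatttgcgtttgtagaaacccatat
ss promoter, chr3R:16403168-16403268, plus strand: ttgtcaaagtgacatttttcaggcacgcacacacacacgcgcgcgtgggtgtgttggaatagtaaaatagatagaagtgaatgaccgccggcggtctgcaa
sens upstream, chr3L:13401665-13401765, plus strand: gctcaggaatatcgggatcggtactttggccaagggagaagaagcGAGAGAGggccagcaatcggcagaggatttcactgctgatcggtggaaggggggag

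AGATAA holds GATAA, so a match to the longer word is also a match to the shorter. Upstream of ham the word AGATAA occurs in 2 copies on the minus strand, read as TTATCT, and overlaps copies of GAGAG. In the window of the internal ham promoter it occurs once. GATAA was thus in 2 of the 5 thresholded windows of these genes, against 20.3% of all 1421 thresholded windows, and AGATAA in 2 of 5, against 6.62%. With 25 bp read on each side of the summit instead of 50, GATAA was in 1 of 5 windows, and with 100 bp in 4. The share over all thresholded windows was computed for windows of 101 bases only, so these 2 counts cannot be set beside it. GAGAG was in 1 of 5 windows, against 11.9%. The other 7 words were in 0 of 5, and each of these was in at most 4.29% of all thresholded windows. The windows of ct and of both intronic peaks of ham, the remaining 3 of the 5, held none of the words. Over all 452 candidate regions of the 10 genes GATAA was in 13.1% of windows, against 14.8% of the 147354 candidate windows. The A+T content was 55.6% over the 5 thresholded windows, against 61.6% over all thresholded windows. A word match describes these letters only, and the centre of a region is a coarse position, because 99.8% of the pooled candidate regions had the same width of 336 bp with the summit in the middle.

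Only ham and ct had a pooled thresholded peak. ham had 4, ct had 1 and the other 8 genes had 0, so 2 of 10 genes had a peak, against 8.34% of all protein-coding genes. These are long genes, with a median length of 29645 bp, against 2164.5 bp over all protein-coding genes, and a median of 42.5 candidate regions per gene, against 5 over all protein-coding genes. Counted by region, 5 of 452 were thresholded (1.11%, 95% Wilson interval 0.473% to 2.56%, counting error only), against 0.964% of all candidate regions. The share per region was therefore near that of all genes. The interval treats the 452 regions as independent, which they are not. Overlapping ones merge into 344, and 4 of the 5 thresholded ones were at ham. Without ham, the tagged gene, 1 of 386 regions was thresholded (0.259%).

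With a looser limit the order of the genes became visible. The score of a region is a deposited number, capped at 1000, higher for more reproducible regions, and the lowest thresholded score was 830. Such a score was not enough by itself. On the main arms 1533 candidate regions scored at least 830, and 112 of these were absent from the thresholded list. The highest score was 1000 for ham and ct, 813 for ab, 809 for ss, 617 for sens, 563 for pros, 560 for ttk, 365 for kn and 219 for acj6. On the main arms 124 candidate regions had a score from 800 up to 830, and those of ab and ss were among them. On the −log10 scale the irreproducible discovery rate stood at 2.01 at the lowest thresholded ham peak, 1.96 at ab and 1.95 at ss. Regions with a score of at least 540 were found at 7 of the 10 genes, against 18.9% of protein-coding genes. They made up 26 of 452 regions, against 2.57% of all candidate regions, and 18 of the 26 were at ham, or 15 when 3 that overlapped a taller ham region and shared its score are left out. Without ham the share was 8 of 386 (2.07%). The genes' median of the highest score was 617, against 285 over all genes with a candidate region. A gene with more regions has more chances of a high one. The regions were of ordinary height as a whole, with a median pooled signal (the authors' value for the height of a region) of 22.0, against 21.6 for all candidate regions. Gene by gene the median was highest at sens, with 35.0 over 13 regions, and at ham, with 33.7 over 66, and lowest at ab, with 18.6 over 73.

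**Figure D1:**
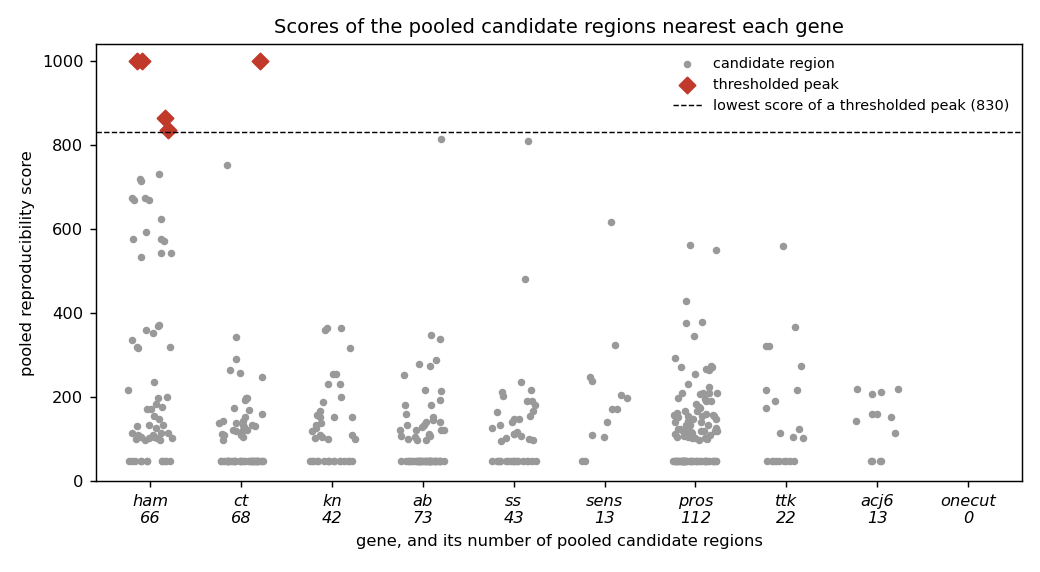
Pooled reproducibility score (vertical axis, no unit) of each candidate region, by gene; the number under each name is its count of regions, from 112 for pros to 0 for onecut. Red diamonds are the 5 thresholded peaks, grey points the other regions and the dashed line the lowest thresholded score of 830; ab (813) and ss (809) lie just under the line, and ham has the most regions between 540 and the line.

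ham (FBgn0045852; 2L, 18762874 to 18792906, transcribed from the minus strand) had the most peaks. The tallest, from 18770484 to 18770819, was intronic, with its summit 1106 bp past an internal start site at 18771758. It had a pooled signal of 87.8, with 19.2 in replicate 1 and 71.0 in replicate 2. Replicate 2 listed it as a peak, and in replicate 1 it was a candidate region with a score of 26. The peak upstream of ham, from 18795944 to 18796279, had a pooled signal of 87.1 and a summit at -3206 bp from the first ham start site and 68 bp downstream of the start of lncRNA:CR44904. It had 81.5 in replicate 2, the highest of these genes in that replicate, whereas replicate 1 had no region over its summit. Both of these peaks were thresholded in replicate 2 and not in replicate 1.

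The ham peak at -173 bp from the internal start site, from 18771763 to 18772098, had a pooled signal of 69.3 and a score of 835, close to the limit. Its values were 27.8 in replicate 1 and 37.8 in replicate 2, with scores of 483 and 27, and it was thresholded in neither. The peak from 18781383 to 18781718, in an intron 1049 bp downstream of the start site at 18782600, had a pooled signal of 62.8 and a score of 864. It had 23.9 in replicate 1 and 42.6 in replicate 2 and was again thresholded in neither. Replicate 2 had a further ham peak that the pooled list lacked, from 18762358 to 18762657, just beyond the 3' end of the gene, with a signal of 54.9. The pooled candidate region there had a signal of 42.2 and a score of 673.

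Of the 4 annotated start sites of ham, 3 had a region with a score of at least 540 within 500 bp. These regions lay at -151, -291 and -173 bp, with pooled signals of 66.3, 44.8 and 69.3. At the fourth, at 18782600, the regions within 500 bp scored 197 and 371. The nearest region with a score of at least 540 was the thresholded one at 1049 bp. ham had 18 regions of such a score in all, and how often one lies this near to other start sites was not computed.

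ct (FBgn0004198), on the plus strand of X from 7608428 to 7678859, encodes Cut, a homeodomain protein that selects external sensory over chordotonal organ fate and whose level in arborization neurons goes with dendrite complexity. Its peak, from 7651621 to 7651956, lay deep in an intron, 19567 bp from the nearest ct start site. The pooled signal was 82.9, with 25.04 in replicate 1 and 64.2 in replicate 2. Only replicate 2 listed it as a peak, and its replicate 1 score was 362. A further ct region, from 7618161 to 7618496, in an intron 9181 bp from a start site, had a pooled signal of 62.2 and a score of 752, with 28.3 in replicate 1 and 36.3 in replicate 2. The remaining 66 candidate regions of ct scored 344 or less, so 1 peak and this region stood clear of the other regions nearest a ct start site. The 70432 bp body of ct held 73 candidate regions, some of them nearest to other genes, and 1 was thresholded.

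**Figure D2:**
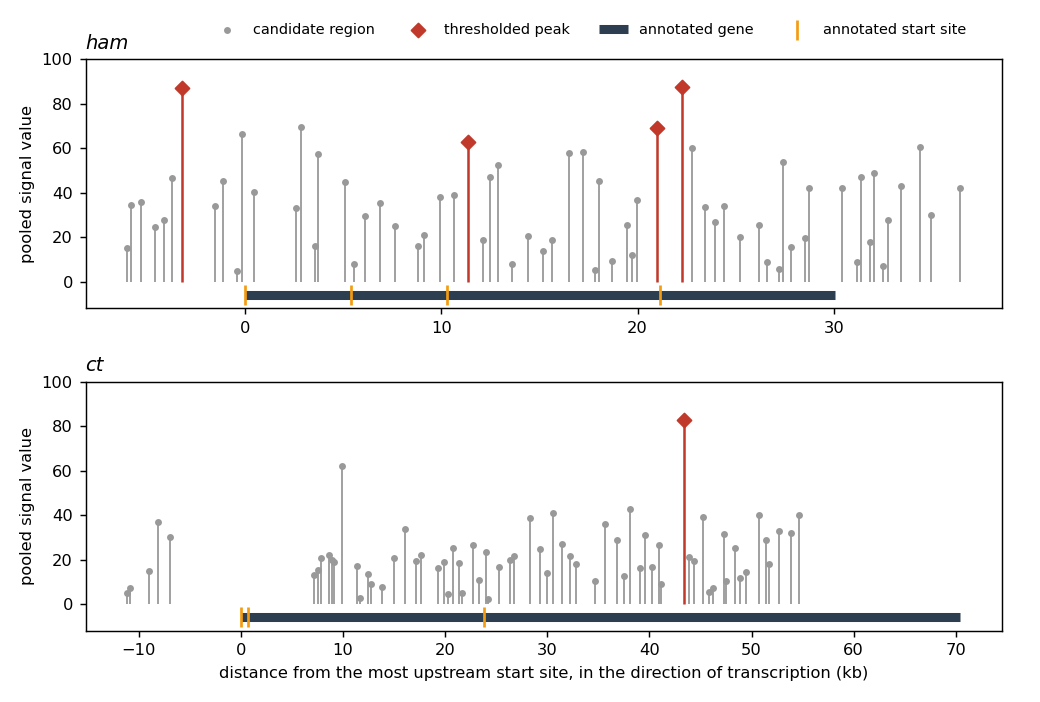
Pooled signal value (vertical axis, the authors' peak height) of each candidate region that belonged to ham (top) or ct (bottom). The horizontal axis is the distance in kb from the most upstream start site of the gene, along the direction of transcription. Dark bars are the annotated genes, orange ticks the start sites and red diamonds thresholded peaks. The 4 ham peaks reach 62.8 to 87.8 and lie among many regions above 40. Apart from its peak of 82.9, the ct regions above 40 are those of 62.2, 42.7, 40.8 and 40.2.

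Among the other dendrite regulators, ab and ss had a single region near the limit. ab (FBgn0264442), on 2L, encodes a BTB zinc finger protein that keeps the dendrites of class I neurons simple. Its highest region had a pooled signal of 68.2, with 30.3 in replicate 1 and 30.7 in replicate 2, which made it taller within replicate 1 (above 98.7% of candidate regions) than within replicate 2 (above 91.3%). The next ab region scored 348. ss (FBgn0003513), on 3R, encodes Spineless, a bHLH-PAS protein related to the mammalian dioxin receptor and needed for dendrite diversity. Its highest region, from 16403050 to 16403385 in the promoter, 465 bp downstream of a start site, had a pooled signal of 61.0, with 20.2 in replicate 1 and 35.2 in replicate 2. A second, at -13006 bp, had 50.7 and a score of 481. Neither gene's regions were thresholded in either replicate.

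kn (FBgn0001319), on 2R, encodes Knot (Collier), the COE factor of class IV neurons, and its 42 regions scored at most 365. The highest, from 14784580 to 14784915 in an intron, had a pooled signal of 48.3, with 12.4 in replicate 1 and 35.0 in replicate 2. The kn region of the next highest score overlapped it, shared its score and had a signal of only 10.2. Such pairs were common in the deposited lists. Of the 452 regions, 56 overlapped a taller one of the same gene with a score within 1 of its own, and without them 23 rather than 26 regions reached 540.

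The regions of highest score of sens, pros and ttk, which act in the sensory organ lineage, lay within 590 bp of a start site, below the limit. sens (FBgn0002573), on 3L, encodes Senseless, the zinc finger protein that sustains proneural activity in the precursor. Its highest region, from 13401547 to 13401882 at -590 bp from the start site, had a pooled signal of 60.8. Replicate 2 had 46.0 there, above 98.6% of its candidate regions, and replicate 1 had 11.5, above only 56.3%. pros (FBgn0004595), on 3R, encodes Prospero, a homeodomain protein segregated to 1 daughter cell at division. It had the most candidate regions, 112, and its highest score, 563, belonged to the region at -4 bp from an internal start site, from 11372616 to 11372951, with a pooled signal of 42.4, of 11.6 in replicate 1 and of 31.6 in replicate 2. Its tallest region, of 57.5, lay in an intron at 3766 bp and scored 551. ttk (FBgn0003870), on 3R, encodes Tramtrack, a BTB zinc finger repressor that acts downstream of Notch in the non-neuronal cells of the organ. Its highest region was at -5 bp from an internal start site, from 31725607 to 31725942, with a pooled signal of 50.4 and 30.6 in replicate 2, and replicate 1 had no region over its summit. Of the 9 regions of highest score, 1 per gene, 3 lay within 500 bp of a start site, those of ss, pros and ttk. Over all their regions these genes had 11.5% in promoters, against 14.4% for all candidate regions. Of the 5 thresholded peaks 2 lay in a promoter, including that of lncRNA:CR44904, against 51.7% of all thresholded peaks.

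acj6 (FBgn0000028), on X, encodes a POU domain protein known from olfactory neurons, and none of the 13 regions nearest its start site scored above 219. The tallest of these had 44.1 and the one of highest score 38.4, with 11.4 in replicate 1 and 20.9 in replicate 2. The body of acj6 held 36 candidate regions, 0 of them thresholded, and those nearest to other genes are not described here. The nearest thresholded peaks were 41247 and 45244 bp from the middle of acj6, at Top1, which encodes a DNA topoisomerase, with signals of 118 and 82.6. onecut (FBgn0028996), from 598555 to 607649 on chromosome 4, encodes a factor with a CUT domain and a homeodomain, and it had 0 candidate regions in the pooled list and in both replicates. The nearest pooled region was 46963 bp away. Chromosome 4 as a whole had 59 pooled regions and 0 thresholded peaks, and 72 of its 80 protein-coding genes had no region, so most genes of that chromosome were without one. A gene without candidate regions gives no value, which is not a measured absence of Ham.

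Replicate 2 held more of the peaks of these genes than replicate 1. Replicate 1's own list held a peak at 0 of the 10 genes, against 2.82% of protein-coding genes, and replicate 2's list at 2 of 10, against 6.37%. Of the 5 pooled peaks, 3 overlapped a replicate 2 peak, namely those of 87.8 and 87.1 at ham and that at ct. The other 2, at ham, overlapped a peak of neither replicate. None of the 5 overlapped a peak of both. In the conservative list, which holds 771 peaks against 1495 in the pooled thresholded list, stood 0 of 5. The share of all pooled peaks that overlap a peak of 1 or both replicates was not computed. Whether these overlap counts are particular to these genes is therefore unknown. Of the 452 regions, 247 had their summit in a candidate region of replicate 1 and 345 in one of replicate 2. Over the 192 with both, the median signal was 12.6 in replicate 1 and 19.9 in replicate 2, and Spearman's correlation of the 2 heights was 0.31. This correlation is across regions, which share the libraries and often overlap. The scale of the signal is not stated to be the same in the replicates, so heights are better read as ranks within each.

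**Figure D3:**
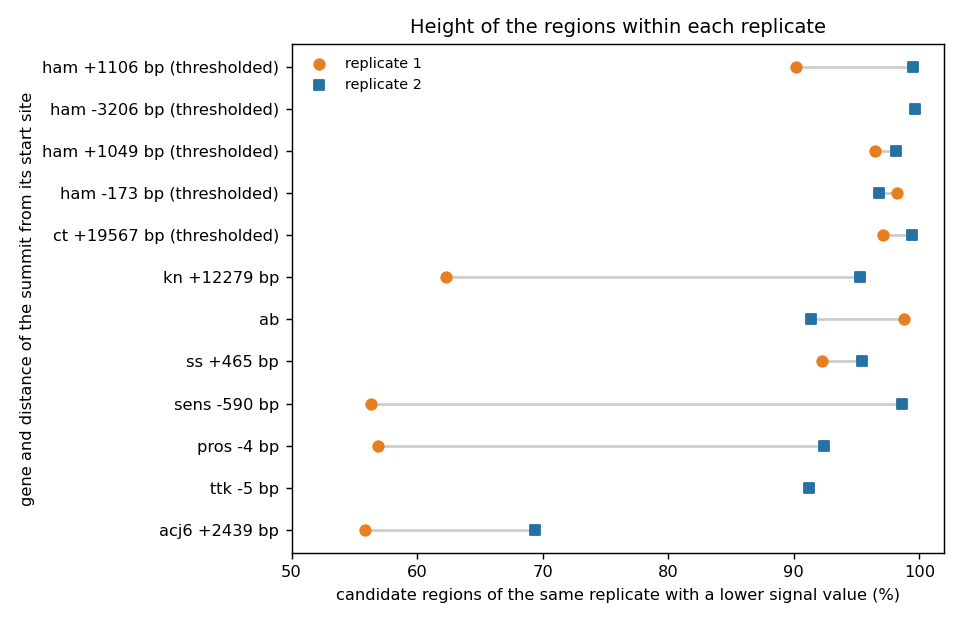
Share of a replicate's own candidate regions (horizontal axis, %) that had a lower signal value than the region holding the summit, for the 5 thresholded peaks and the highest-scoring region of each other gene; circles are replicate 1, squares replicate 2, and a missing circle means no candidate region in replicate 1. The ham, ct, ss and ab regions exceed 90% in each replicate that lists them, while sens, pros and kn exceed 90% in replicate 2 only and acj6 in neither.

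The candidate regions around ham were taller than elsewhere, also outside the gene. Within 50 kb of the middle of ham the median pooled signal of 139 candidate regions was 32.0, against 21.8 for the median of 1299 windows of 100 kb on the 5 large arms, a ratio of 1.47. This exceeded 99.9% of the windows. The 73 regions of that stretch that were nearest to other genes had a median of 31.1, close to the 33.7 of the 66 regions of ham itself. The same stretch exceeded 99.8% of windows in replicate 1 (15.6 against 10.6) and 99.9% in replicate 2 (22.6 against 16.0). In steps of 10 kb the pooled median was between 26.5 and 40.5 in the 10 steps within 50 kb, and 6 of them exceeded the 95th percentile of all steps, 31.3. In the 14 steps from 50 to 120 kb away the pooled medians lay between 16.5 and 33.8, and 2 exceeded it. Of these 14 farther steps, 11 still lay above the median of all steps, as did 10 of the 10 nearer ones. In replicate 1, 9 of the 10 nearer and 10 of 13 farther steps lay above it. In replicate 2, 10 of 10 and 10 of 14 did. The highest of the 13 farther steps of replicate 1, with a median of 16.8, rested on 4 regions. A step needed at least 5 regions to count among all steps, so that step is set against an unlike background. The steps and windows were chosen after the values were seen.

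Around the other 8 genes with pooled candidate regions this ratio was between 0.813, at acj6, and 1.12, at sens, and each pooled median lay within the 5th to 95th percentile of windows (16.5 to 25.5). In replicate 2 alone the stretch around sens had a median of 19.4, a ratio of 1.21 that exceeded 97.8% of windows. Around onecut there was no pooled candidate region, and the 5 of replicate 2 had a median of 8.75, against 16.0 for the median window. Of the 73 regions nearest to other genes around ham, 3 were thresholded (4.11%), at CG43814 (53.8), CG17325 (104) and Ugt36F1 (82.0), and 6 scored at least 540 (8.22%). Set against the median of the candidate regions within 50 kb of each summit, the ham peaks were 1.96 to 3.05 times as tall and the ct peak 4.03 times. Over 1418 thresholded peaks of the large arms this ratio had a median of 4.13, with quartiles of 3.24 and 6.07, so all 4 ham peaks lay below the lower quartile and the ct peak near the median. The ab region had a ratio of 3.57 and that of ss 2.80, the first above each of the ham peaks. Whether the number of copies of this stretch in the transgenic strain moves with these heights was not tested, since no control library was analysed here.

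**Figure D4:**
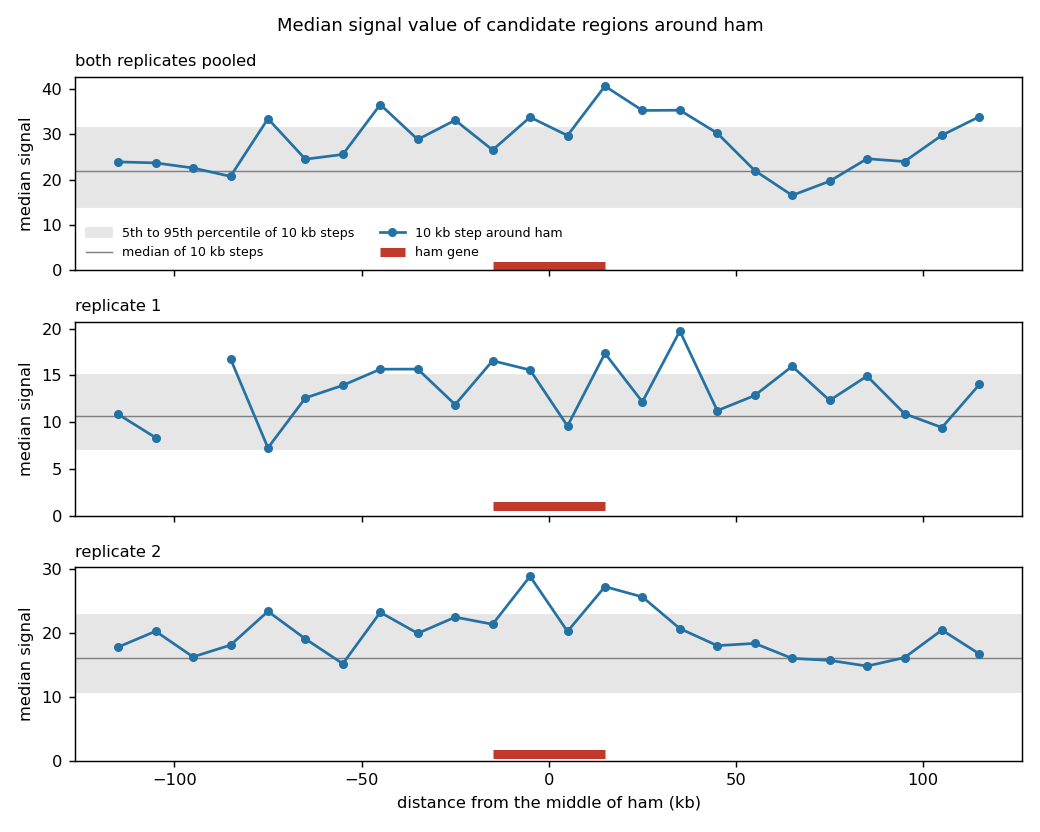
Median signal value (vertical axis) of the candidate regions in steps of 10 kb against the distance from the middle of ham (horizontal axis, kb), for both replicates pooled, replicate 1 and replicate 2; the grey band spans the 5th to 95th percentile of all 10 kb steps on the large arms, the grey line their median and the red bar the ham gene. In the pooled list the steps from -50 to 50 kb all lie above the line, at 26.5 to 40.5. The gap in the replicate 1 line is a step with 0 regions.

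Further genes of sensory organs and dendrites were taken from 4 lists, which were chosen with earlier results of these data known. Of their 77 genes 9 had a pooled thresholded peak (11.7%), against 8.34% of all protein-coding genes. These genes had a median of 20 candidate regions, against 5 over all protein-coding genes. Of their 2108 candidate regions 11 were thresholded (0.522%), against 0.964% of all candidate regions. Among proneural and early factors 1 of 16 genes had a peak, sens-2, a relative of sens, with a pooled signal of 81.3 in an intron, 7.23 in replicate 1 and 69.1 in replicate 2. The sensory subtype and later neuron factors had a median of 32 candidate regions per gene. Of their 967 regions 7 were thresholded (0.724%), below the share of all candidate regions. Set beside the 8.34% of all protein-coding genes, 5 of these 26 factors had a peak. They were elav, which encodes a neuronal RNA-binding protein (274 at -240 bp, with 95.7 and 177 in replicates 1 and 2, and a further peak of 104), zfh1, a zinc finger and homeodomain gene (146), chn, a zinc finger gene that promotes achaete and scute expression (112 and 77.3), ems, a homeodomain gene (83.5), and vvl, a POU domain gene (81.6). The ems and vvl peaks were intergenic, 13104 and 33865 bp from the nearest start site of the gene. The elav peak at -240 bp was the sole one of these 11 that was thresholded in both replicates, and it also lay in the body of the neighbouring gene arg. Among genes of dendrite shape 3 of 22 had a peak, namely tutl (91.7) and Dscam1 (66.9), which encode surface proteins of the immunoglobulin superfamily, and Ten-m (65.2), which encodes a teneurin. The Ten-m peak lay in an intron, 22740 bp from the nearest Ten-m start site. Sensory receptors and channels, which include those for touch, heat and pain, had 0 of 13.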

How the data were processed

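The files were peak lists of chromatin immunoprecipitation sequencing on build dm6, per the labels. The authors ranked candidate regions by irreproducible discovery rate and thresholded them, per the deposited file descriptions, for each replicate and for both pooled. The sources used here do not name the aligner, the peak caller or the control, and a possible control experiment that the labels cite was not used. Deposited values were used as they stand: the signal of a region (its height, on a scale the labels do not state), its score, and, to check what the score minimum stands for, the −log10 of the irreproducible discovery rate in the deposited ranked lists. No read counts were analysed, so depth is unknown and intervals cover counting error only.

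Start sites came from Ensembl release 115, transposable elements left out. A promoter summit lay within 500 bp of any annotated start site. Replicate heights were those of the replicate's candidate region that held the pooled summit, and peaks were called shared at an overlap of 1 bp. No test was made, because the series has 1 group, and counts are set beside those over all genes or regions. The genes, lists and words were chosen with earlier results of these data known. The rule for named items covered all 10 genes, their thresholded peaks, their 3 regions of highest score and each gene of the 4 lists with a peak; of the regions, the text describes the highest of each gene and some of the others. The sequence and position of the highest ab region are not reported here. The assignment to start sites was checked on planted positions. Python 3.11.15, pandas 2.3.3 and scipy 1.17.1 were used.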

Additional observations from a re-analysis of the deposited data

How the results depend on the processing

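The alternatives were fixed together with the gene lists, except the omission of ham, which was added after seeing the data. Of 10 genes 2 had a pooled thresholded peak, and 1 did with a limit of 5 kb to the start site (ct was lost), 0 in the conservative list, 7 with a score of at least 540 and 1 without ham. The 5 peaks became 0 in the conservative list, 26 with a score of at least 540, 3 with at least 920 and 1 without ham. The genes of the 4 lists with a peak, 9 in all, became 4 with the 5 kb limit and 30 with a score of at least 540. From the lists of a single replicate, the genes with a peak ranged from 0 (replicate 1's list, without replicate 2) to 2 (replicate 2's list, without replicate 1), the peaks from 0 to 4, the genes of the 4 lists from 1 to 8, and the share of candidate regions thresholded from 0% to 0.995%. That share was 1.11% with all genes and 0.259% without ham. Windows with GATAA, 2 of 5, were 1 when 25 bp were read on each side and 4 with 100 bp. Shorter windows hold fewer letters and longer ones more, and the share over all thresholded windows was not computed at these lengths. The causes of the changes above were not tested. Peaks overlapping one of both replicates stayed at 0 under each overlap rule, and summits in promoters at 2 with 250 or 1000 bp. No paired analysis was possible because the series has 1 group. Depth is unknown, so a gene without a peak is below the authors' limit and not shown to lack Ham.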
